A study of Capra hircus and Bos taurus with 7 samples.

Results

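The miRNAs described here are those named for secretory and other epithelial cells, led by miR-375 (deposited as bta-miR-375), in extracellular vesicles recovered from reconstituted milk powders. Such vesicles are small particles enclosed by a membrane that cells, here those that contribute to milk, release into their surroundings. They were taken by name, as the rows for miR-375, miR-205, miR-203, miR-31, miR-182, miR-183 and miR-96 without species prefix or arm. Of these 7 names, 6 had a row among the 364 mature miRNAs counted in each library, and miR-203, a miRNA of differentiating epidermis in mouse, had none. The 7 small RNA libraries comprised 1 from a commercial bovine powder (Bos taurus), 3 from skimmed goat powder (Capra hircus) and 3 from whole goat powder. The goat libraries carry the letters A to C, and no label states whether these are separate packs, lots or repeat isolations, so any p-value reflects library-to-library spread alone, possibly of technical origin. The libraries held between 5675489 and 11963849 miRNA reads, with the lowest total in the bovine library.

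A mature miRNA guides an Argonaute protein to mRNAs that match its seed, a short stretch near its 5′ end, and lowers their output. The miRNA miR-375 is best known from pancreatic islets, where in mouse it restrains insulin secretion, and it is abundant in several secretory epithelia. The miR-183, miR-96 and miR-182 genes form a cluster made as a single primary transcript and are best known from sensory cells in mouse. The seeds of miR-96 and miR-182 are nearly the same, and that of miR-183 is different. In the goat assembly ARS1.2 the genes MIR183, MIR96 and MIR182 followed one another in that order between UBE2H and NRF1, with no other annotated gene among them. The miRNA miR-205 is typical of basal and stratified epithelia and, with the miR-200 family, represses the ZEB1 and ZEB2 mRNAs, while miR-31 is known from basal and stem cells of the mouse mammary gland.

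All 6 miRNAs were detected in all 7 libraries, but at very different levels. Levels are counts-per-million (CPM), the reads of a miRNA scaled to a common total of miRNA reads per library, with no correction for length, which is nearly equal among mature miRNAs. Together the 6 held 1.76% of the bovine reads, 3.42% ± 0.255 of the skimmed reads and 2.96% ± 0.132 of the whole-powder reads (SD, n = 3 each for the goat powders). The goat powders differed by 0.462 percentage points, skimmed minus whole, and their libraries did not overlap in this share. The miR-375 row alone made up 65.7% of these reads in the bovine library, 86.8% to 90.7% in the skimmed libraries and 82.5% to 87.7% in the whole libraries. Most of the summed share is thus miR-375, and in every library the cluster of miR-182, miR-183 and miR-96 supplied most of the remainder.

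**Figure D1:**
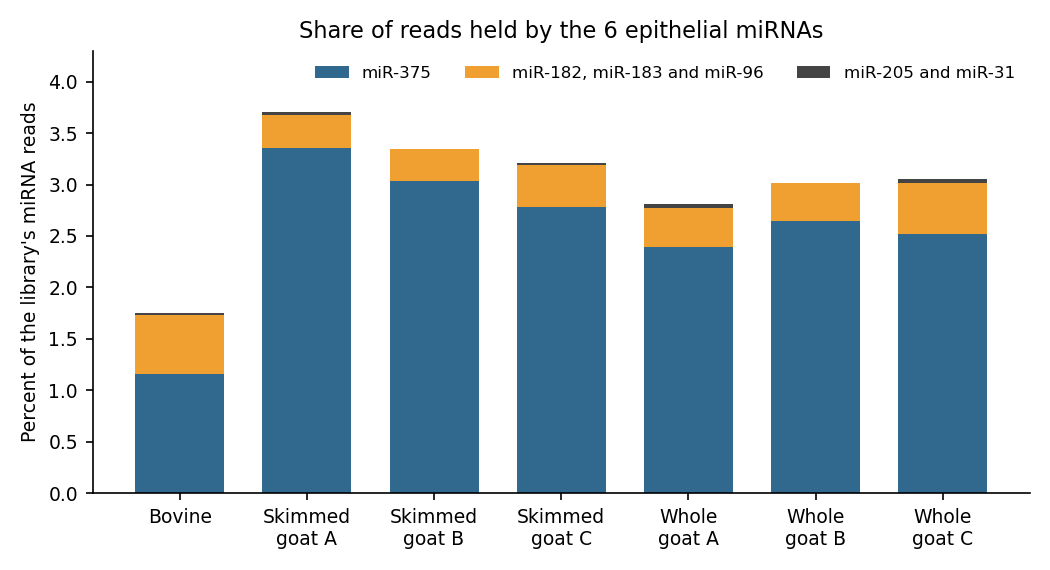
Bars give the percent of each library's miRNA reads held by miR-375, by the cluster of miR-182, miR-183 and miR-96, and by miR-205 with miR-31. The bovine bar stands at 1.76% with the smallest miR-375 part, against 3.21% to 3.70% for the skimmed and 2.81% to 3.05% for the whole libraries.

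The order of the upper members was the same everywhere. In all 7 libraries miR-375 stood above miR-182, by a log2 ratio of 1.29 to 3.72, miR-182 above miR-183, by 0.57 to 2.13, and miR-183 above miR-205, by at least 2.09. Below that no order held, since miR-205 exceeded miR-31 in 4 of 7 libraries and miR-31 exceeded miR-96 in 4 of 7. Ranked among all 364 miRNAs, miR-375 was number 19 in the bovine library and number 10 to 13 in the goat libraries. The cluster miRNAs miR-182 and miR-183 ranked 32 and 57 in bovine, against 42 to 49 and 52 to 77 in goat.

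As other epithelial miRNAs, the 5 names of the miR-200 family (miR-200a, miR-200b, miR-200c, miR-141 and miR-429), which hold cells in the epithelial state by repressing ZEB1 and ZEB2, all had a row. They took 9.48% of the bovine reads, 7.67% to 8.34% of the skimmed reads and 7.45% to 7.74% of the whole reads. Marker miRNAs of other cells were also present. The 7 leukocyte rows (of miR-142, miR-146a, miR-146b, miR-150, miR-155 and miR-223) summed to 0.0933% in bovine, 2.27% to 2.52% in skimmed and 2.16% to 2.55% in whole. The 3 stromal and endothelial names with a row, of 6 sought, summed to 0.00172%, 0.169% to 0.246% and 0.149% to 0.165% in the same order of powders. The erythroid and the muscle list had 1 row each, both at or below 0.0120% in every library.

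In the comparison of skimmed with whole goat powder, miR-375 was the member whose libraries separated. It stood at 33520, 30373 and 27844 CPM in skimmed libraries A, B and C, against 23879, 26461 and 25144 CPM in whole libraries A, B and C. Every skimmed library lay above every whole library, though skimmed C exceeded whole B by little. The means were 30579 ± 2844 CPM in skimmed and 25161 ± 1291 CPM in whole powder (SD, n = 3 each). No label ties both powders to 1 milk, so skimming and any other difference between them cannot be told apart, nor can fewer vesicles from a cell type and less of a miRNA per vesicle. Some markers of other cells also separated, with miR-223 at 1503 to 1722 CPM in skimmed against 1154 to 1211 CPM in whole, and the stromal miR-143 at 1670 to 2441 CPM against 1487 to 1552 CPM. The muscle miRNA miR-1 stood at 37.2 to 120 CPM in skimmed against 0.305 to 27.1 CPM in whole powder. The leukocyte miR-150 separated the other way, at 0 to 0.121 CPM in skimmed against 7.30 to 17.8 CPM in whole powder. The remaining leukocyte rows, miR-146b and miR-155 among them, overlapped between the powders. So did the erythroid miR-486 and the other stromal and endothelial rows, miR-145 and miR-126-3p. The highest miR-145 value, 101 CPM, was in whole B, and miR-126-3p was at 0 in skimmed C as in every whole library. The summed leukocyte share overlapped between the powders, but most of it was miR-146b, at 18690 to 22721 CPM over the goat libraries. The overlap of the sum is thus mainly that of miR-146b. The part of these markers of other cells in the miR-375 values was not tested.

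The difference for miR-375 missed the threshold of 0.05 for the adjusted p. By the quasi-likelihood test of edgeR, adjusted over the 209 miRNAs tested by the Benjamini-Hochberg method, the log2 fold change was 0.38 ± 0.12 (SE; 95% interval 0.09 to 0.66), with an unadjusted p of 0.016 and an adjusted p of 0.22. Without skimmed A the log2 fold change was 0.25 (edgeR adjusted p = 0.55), and with upper-quartile scaling 0.23 (0.68). An unadjusted p under 0.05 was reached by 10.5% of the miRNAs tested, and libraries that do not overlap were found for 20.1% of them, with skimmed higher for 9.57%. DESeq2's Wald test gave miR-375 an adjusted p of 0.026 over the 71 miRNAs that its own filter kept, of which 18.3% were called. Without that filter the adjusted p was 0.056, over 202 miRNAs of which 5.94% were called. On all miRNAs with a read it was 0.054 with the filter and 0.058 without it, where 9.05% and 7.25% of miRNAs were called.

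None of the 6 members passed in edgeR, where 0.478% of all miRNAs did, namely 1 of 209. The members' values went both ways, 3 above and 3 below 0, with a median log2 fold change of -0.01, beside a median of 0.03 and 113 values above 0 over the 209 miRNAs. In limma-voom 0 members passed, with 0.478% of all miRNAs called.

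**Figure D2:**
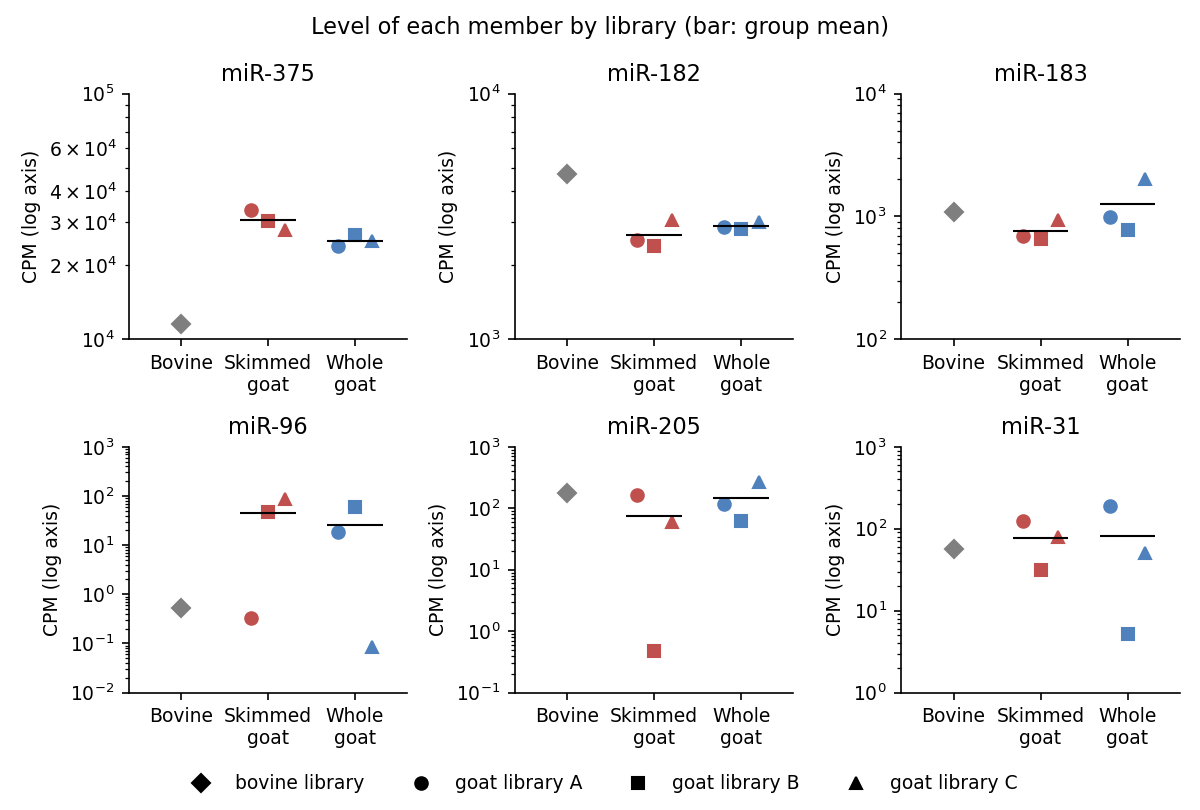
Each panel shows CPM on a log axis for 1 member, with a point for each library (letters A to C for goat) and a bar at the mean of each goat powder. For miR-375 the skimmed points lie above the whole points and the bovine point at 11535 CPM below both, while miR-96, miR-205 and miR-31 each have goat libraries far below the rest.

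Within the cluster, miR-182 was the steadiest member. It had 2535, 2395 and 3067 CPM in skimmed A, B and C, against 2862, 2821 and 3002 CPM in whole A, B and C. The powders overlapped, with skimmed C the highest of the 6 and skimmed B the lowest. The log2 fold change was -0.03 ± 0.13 (SE; 95% interval -0.32 to 0.26; edgeR adjusted p = 0.96), and its sign turned when skimmed B or whole C was left out. The coefficient of variation over the 6 goat libraries was 9.49%, compared with 12.8% for miR-375.

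The partner miR-183 lay between 650 and 996 CPM in 5 goat libraries and higher in the other one. It had 692, 650 and 934 CPM in the skimmed libraries A to C, against 996, 773 and 2023 CPM in the whole libraries A to C, so that whole C held 2.03 times the level of the next highest library, whole A. The powders overlapped, and the log2 fold change of -0.66 ± 0.37 (SE; 95% interval -1.50 to 0.18) had an edgeR adjusted p of 0.57. Without whole C the log2 fold change was -0.11 (edgeR adjusted p = 0.98).

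The third partner, miR-96, was present in some libraries and nearly absent in others. Its reads numbered 3, 397 and 700 in skimmed A, B and C, against 119, 591 and 1 in whole A, B and C. That is 0.323, 47.9 and 88.0 CPM in skimmed, against 18.1, 58.3 and 0.0836 CPM in whole powder. Each powder thus held a library with 3 reads or fewer, and the ranges overlapped almost wholly. The exact 95% Poisson interval of the lowest value, in whole C, was 0.00212 to 0.466 CPM. The log2 fold change of 0.92 ± 2.06 (SE; 95% interval -3.81 to 5.65; edgeR adjusted p = 0.96) spans large differences in either direction. It was 0.01 without skimmed C, 0.37 without whole C and 2.34 without whole B.

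Since the cluster is made as 1 transcript, the partners were also set against each other within each library, which needs no scaling. The ratio of miR-183 to miR-182 was 0.229 in bovine, 0.273, 0.271 and 0.304 in skimmed A to C, and 0.348, 0.274 and 0.674 in whole A to C. Whole C stands apart, and the other goat libraries averaged 0.294 ± 0.0330 (SD, n = 5). The miR-183 level of whole C was thus high relative to its own miR-182 and not only in CPM. For miR-96 the reads of miR-182 were 50.0 and 34.9 times as many in skimmed B and C and 48.4 times as many in whole B, but 158 times as many in whole A. In the bovine library, in skimmed A and in whole C, the reads of miR-182 were 8903, 7846 and 35918 times those of miR-96, each on 3 miR-96 reads or fewer. The 2 goat libraries poorest in miR-96, skimmed A and whole C, held 2535 and 3002 CPM of miR-182, and whole C was the richest in miR-183.

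**Figure D3:**
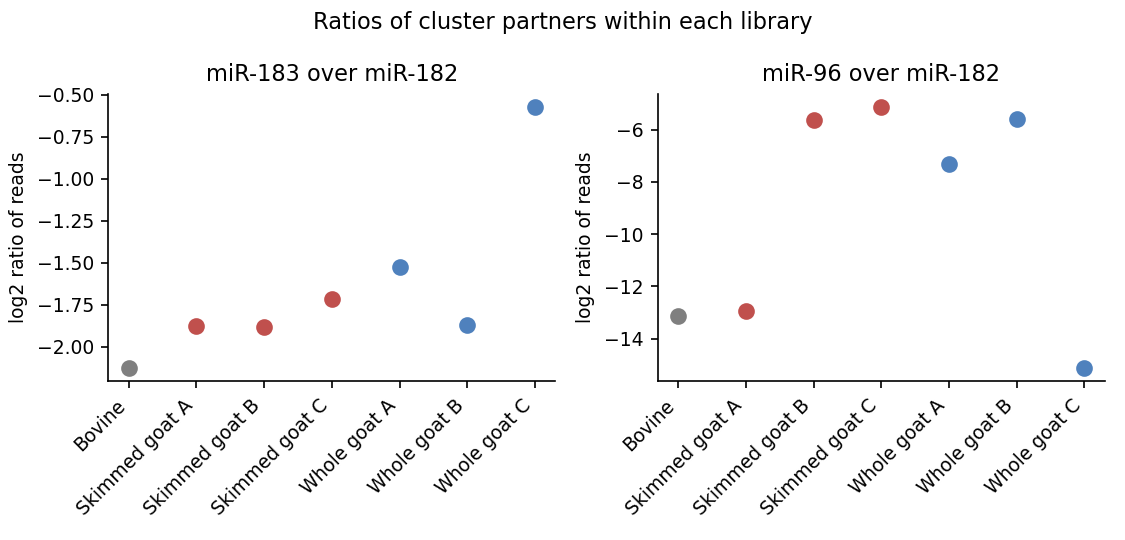
Points give the log2 ratio of reads within each library for miR-183 over miR-182 (left) and miR-96 over miR-182 (right). Whole C is the highest library for miR-183 and the lowest for miR-96, and in the right panel bovine, skimmed A and whole C lie far below the others, at -13.12, -12.94 and -15.13.

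The basal-type miRNAs were low and varied. For miR-205 the skimmed libraries A, B and C held 1505, 4 and 477 reads (162, 0.483 and 60.0 CPM), against 775, 630 and 3202 reads (118, 62.1 and 268 CPM) in whole A, B and C. Skimmed B was close to empty, with an exact 95% Poisson interval of 0.132 to 1.24 CPM, and whole C was the highest. The log2 fold change was -0.90 ± 1.48 (SE; 95% interval -4.30 to 2.50; edgeR adjusted p = 0.96). It was -2.79 in limma-voom. Without skimmed A it was -2.27, without skimmed B -0.31 and without whole C -0.17.

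For miR-31 the skimmed libraries A, B and C had 123, 31.3 and 78.6 CPM, against 190, 5.23 and 50.0 CPM in whole A, B and C. Its highest and its lowest value were both in whole powder, and the highest was 36.3 times the lowest. The log2 fold change was 0.02 ± 1.26 (SE; 95% interval -2.89 to 2.92; edgeR adjusted p = 1.00), and it lay anywhere between -0.54, without skimmed A or without whole B, and 1.57, without whole A.

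The libraries poorest in 1 of the low members were not the same for each: skimmed A and whole C for miR-96, skimmed B for miR-205 and whole B for miR-31. At least 100 reads in one goat library with at most 10 in another were found for 2 members, miR-96 and miR-205, and for 33.8% of all 364 miRNAs. The intervals given for the lowest values hold counting error alone. Amplified reads can be copies of 1 molecule where no molecular identifier tells them apart.

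**Figure D4:**
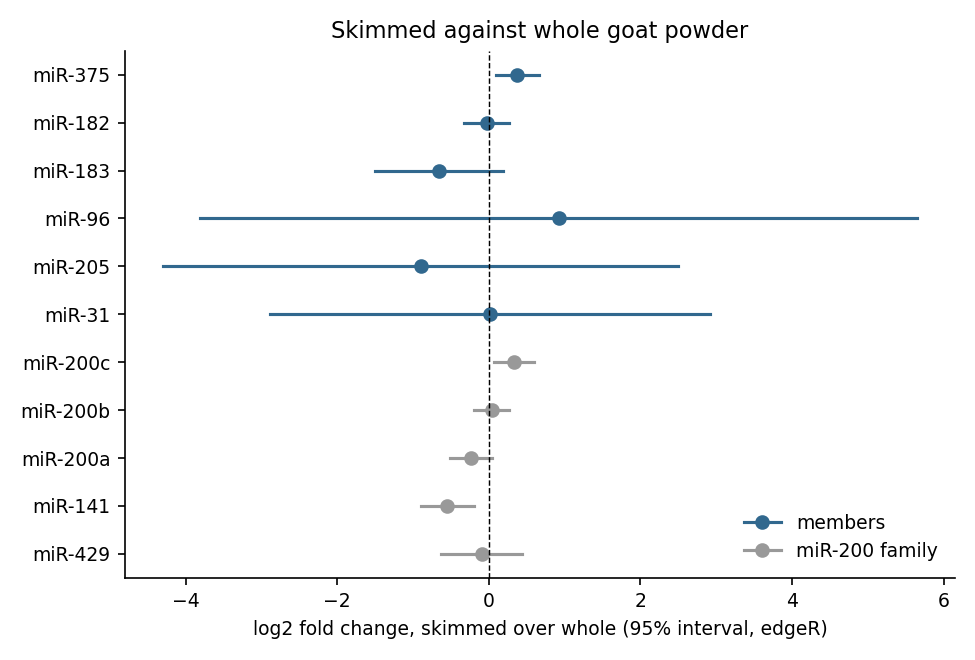
Points give the log2 fold change of skimmed over whole goat powder and lines its 95% interval in edgeR, for the 6 members and the 5 miR-200 family miRNAs. The intervals of miR-96, miR-205 and miR-31 span several units, and those of miR-375 and miR-182 are narrow.

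Among the miR-200 family 0 of 5 passed in edgeR in either direction, with 2 log2 fold changes above 0 and 3 below. Its most abundant member, miR-200c, had 40434 ± 3549 CPM in skimmed and 34336 ± 566 CPM in whole powder (SD, n = 3 each), with a log2 fold change of 0.33 ± 0.12 (SE; edgeR adjusted p = 0.26), close to that of miR-375. The value for miR-141, from the same cluster as miR-200c, was -0.55 ± 0.15 (SE; edgeR adjusted p = 0.12). For miR-200a it was -0.24 ± 0.12 (SE; edgeR adjusted p = 0.52). The powders did not overlap for miR-200c, higher in skimmed, or for miR-141 and miR-200a, both lower in skimmed. Libraries that do not overlap were found for 20.1% of all miRNAs tested. Relative to the summed miR-200 family, miR-375 stood at 0.388 ± 0.0422 in skimmed and 0.329 ± 0.0116 in whole powder (SD, n = 3 each), again without overlap.

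The miRNAs whose level followed that of miR-375 most closely over the 6 goat libraries were sought among 147 others with at least 10 reads in each. By Pearson's r of log2(CPM + 1) they were miR-7 (r = 0.96), miR-664b (0.94), miR-151-3p (0.93), miR-181a (0.92) and miR-30c (0.90). These values describe 6 libraries that also differ by powder. Of these, miR-7 stood at 528 ± 37.1 CPM in skimmed and 436 ± 40.9 CPM in whole powder, and miR-151-3p at 3912 ± 321 and 3034 ± 71.7 CPM (SD, n = 3 each). None of the other members was among the 5: r was 0.04 for miR-31, -0.71 for miR-182 and -0.64 for miR-183, and miR-205 and miR-96 had too few reads in some libraries. In the miR-200 family r was 0.83 for miR-200c, -0.36 for miR-200b, -0.98 for miR-200a, -0.95 for miR-141 and -0.28 for miR-429.

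Bovine powder was then set beside goat powder. With 1 bovine library, species, product and library cannot be told apart, and no test was made. The Poisson intervals of the bovine values hold the counting error of that library alone, not the spread between libraries. The bovine library held 11535 CPM of miR-375 (exact 95% Poisson interval 11447 to 11624), while goat libraries averaged 27870 ± 3565 CPM (SD, n = 6). The lowest goat library had 23879 CPM, so the bovine value lay below the goat range, at 0.414 of the goat mean. In contrast miR-182 stood at 4706 CPM (4650 to 4763) in bovine, above all goat libraries, which held 2780 ± 264 CPM (SD, n = 6), a ratio of 1.69. Relative to the summed miR-200 family of its own library, miR-375 was at 0.122 in bovine, against 0.321 to 0.437 in goat.

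The other members lay inside the goat range. The bovine library had 1078 CPM of miR-183, against 1011 ± 513 CPM in goat (SD, n = 6), a ratio of 1.07. It had 175 CPM of miR-205, against 0.483 to 268 CPM in goat, and 56.2 CPM of miR-31, against 5.23 to 190 CPM in goat. Without whole C the bovine values of miR-205 and miR-183 lay above the goat range too, which made 4 members outside it, and miR-205 was 2.17-fold the goat mean. For miR-96 the bovine library had 3 reads, or 0.529 CPM (exact 95% Poisson interval 0.109 to 1.54), and the goat libraries averaged 35.5 ± 35.3 CPM (SD, n = 6). Its ratio of 0.0149 (0.00307 to 0.0436) rests on a goat mean that 2 goat libraries, at 0.323 and 0.0836 CPM, do not share. The interval of that ratio takes the goat mean as fixed and holds only the counting error of the bovine reads.

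The counts of members were then read against those of all miRNAs. A bovine level at least 2-fold from the goat mean was found for 2 of the 6, miR-375 and miR-96, both lower. Of the 214 miRNAs averaging 10 CPM or more over the 7 libraries, 71% passed that fold, 56.5% as lower and 14.5% as higher. As 6 of these 7 libraries are goat, that filter keeps miRNAs high in goat more readily, and so favours lower bovine values among the 214. At 0.529 CPM in bovine, miR-96 passed it only through goat libraries. A value outside the goat range was found for 2 of the 6, miR-375 and miR-182, against 68.2% of the 214, 45.8% as below it and 22.4% as above it. The median log2 ratio of bovine over goat was -0.21 for the 6 members, -0.44 for the miR-200 family and -1.66 for the 214. Scaling by the trimmed mean of M values (TMM) raised the log2 ratio of all 214 by a median of 0.44. On that scale, whose shift is included in the values that follow, miR-375 was at 0.561 of the goat mean, no longer 2-fold lower but still below all goat libraries, and miR-182 and miR-205 were 2.29-fold and 2.11-fold the goat mean. That made 3 members past 2-fold, against 75.7% of the 214.

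Several markers of other cells were also low in bovine, where 45.8% of the 214 miRNAs lay below the goat range. The leading leukocyte marker, miR-146b, stood at 828 CPM in bovine against 18690 to 22721 CPM in goat, and the myeloid miR-223 at 11.5 CPM in bovine against 1154 to 1722 CPM in goat. For miR-142-5p the gap was smaller, 85.7 CPM in bovine against 115 to 319 CPM in goat. The miR-150 and miR-142-3p rows had 0 reads in bovine, but each was also at 0 in at least 1 goat library. The stromal miR-143 stood at 16.8 CPM in bovine against 1487 to 2441 CPM in goat. The other stromal and endothelial rows did not separate. For miR-145 the bovine value of 0.352 CPM lay inside the goat range of 0 to 101 CPM. The miR-126-3p row was at 0 in bovine, as in skimmed C and whole A, B and C. For the erythroid miR-486 the values were 0.176 CPM in bovine against 15.6 to 72.8 CPM in goat. The muscle miR-1, at 0.352 CPM in bovine, lay inside the goat range of 0.305 to 120 CPM. The part of these markers in the values of miR-375 and miR-182 was not tested.

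**Figure D5:**
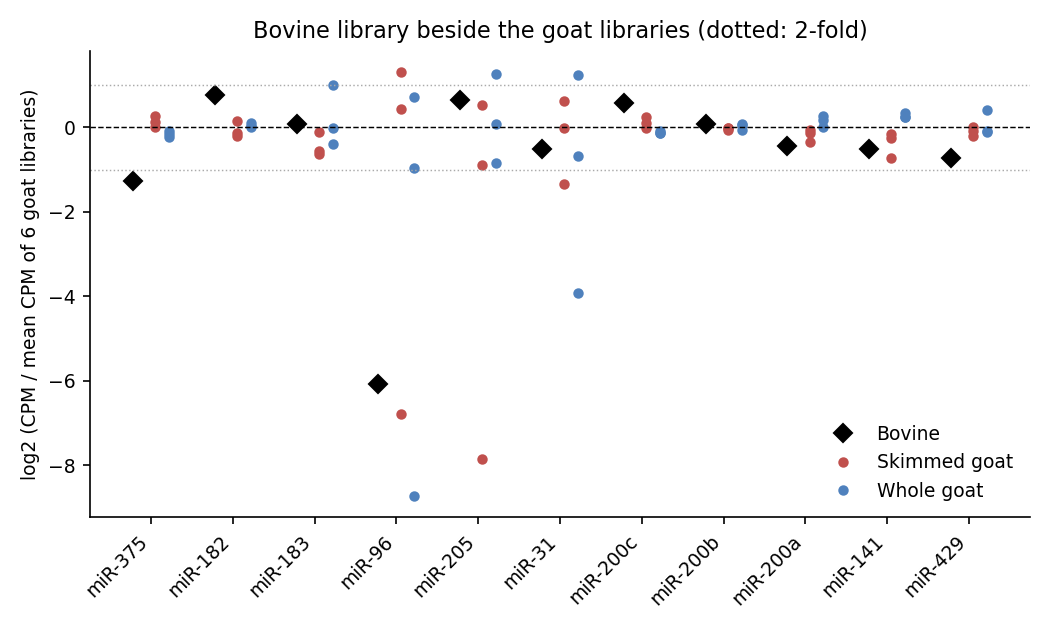
Points give the log2 ratio of each library's CPM to the mean of the 6 goat libraries, with the bovine library as a black diamond and dotted lines at 2-fold. The bovine miR-375 lies below and the bovine miR-182 above every goat library, while for miR-96, miR-205 and miR-31 the bovine value lies within the spread of the goat libraries.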

How the data were processed

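Small RNA of vesicles isolated by size exclusion chromatography was sequenced as single-end reads of 50 bases, per the labels' protocols. The deposited tables give reads per mature miRNA under bovine names in goat libraries too. Many values have fractions, so they were read as estimated counts, not normalized by the authors. No source used here names the aligner, the counter or the genome build. Values were whole numbers (within 1e-06) in all 7 libraries for miR-96 and in 0 of 7 for miR-182, and whether reads were divided between similar miRNAs is not stated.

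CPM was computed here over all 364 miRNAs. For tests, estimated counts of the 6 goat libraries were rounded and fitted with edgeR 4.0.16 in R 4.3.3 (209 miRNAs left by filterByExpr; TMM factors 0.928 to 1.067; quasi-likelihood test; Benjamini-Hochberg adjustment; threshold 0.05). DESeq2 1.42.0 and limma 3.58.1 (voom) were alternatives. The fit was checked on simulated counts with large changes in abundant miRNAs only, which does not cover small changes or the low members. The SE is the log2 fold change over the square root of F. No library copied another: between libraries of the same powder the chi-square was 396 to 1274 per degree of freedom. The labels give no batch.

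Members and lists were chosen with earlier results of these data known. All members were named; the miRNAs most like miR-375 were the 5 with the highest r. The ratio to the miR-200 family and the further DESeq2 settings were added after the data were examined.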

Additional observations from a re-analysis of the deposited data

How the results depend on the processing

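The number of members past the threshold was 0 in edgeR, in limma-voom, with each goat library left out and with DESeq2 in the 3 settings added later, and 1 (miR-375) in DESeq2 with both filters. For miR-375 the log2 fold change ranged from 0.23 to 0.44 over all settings, and from 0.25 to 0.44 with 1 library left out (edgeR adjusted p 0.19 to 0.55). Upper-quartile scaling moved the median of all miRNAs by -0.15. The 1 miRNA called over all miRNAs became 0 with RLE scaling, library totals or upper-quartile scaling, 2 with no filter, 4 at a mean of at least 100 CPM, 13, 12, 22 and 19 in the 4 DESeq2 settings, and 0 to 1 with a library left out. For miR-31 the sign turned with library totals (-0.0705), upper-quartile scaling (-0.0693) and no filter (-0.0526), with a range of -0.54 to 1.57 when a library was left out, and for miR-182 that range was -0.134 to 0.0485. With a replicate block on the letters A to C, 0 miRNAs passed, miR-96 turned to -0.0269 and miR-205 was at -2.45. Same-letter libraries correlated at 0.18, 0.14 and 0.06 in their deviations from the powder mean, each of the 6 best with its own letter. Deviations from a mean of 3 libraries are not independent, so these small values cannot show what the letters mark. Bovine members past the fold numbered 4 at 1.5-fold, 1 at 3-fold and 2 to 3 with a library left out; those outside the goat range numbered 2 to 4, with 4 without whole C. Of the 5 miRNAs most like miR-375, 3 were also found by Spearman's rho. The causes were not tested. At a mean of at least 100 CPM, miR-31 and miR-96 were not tested. With 3 libraries a powder and these gaps between them, differences in miR-96, miR-205 and miR-31 of several fold could not have been seen.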
